A study of Mus musculus with 6 samples.

Results

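The MyoD, MEF2 and SIX-family factors are transcription factors that build and maintain skeletal muscle and that work with the SWI/SNF chromatin remodeling complex during muscle differentiation. The 9 genes described here are *Myod1*, *Myog*, *Myf5*, *Myf6*, *Mef2a*, *Mef2c*, *Mef2d*, *Six4* and the satellite cell factor *Pax7*. They were taken by symbol from a deposited table of 20632 genes. All 9 genes had counts in every mouse and all 9 passed the filter on low counts, which left 12116 genes for testing.

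RNA-seq was performed on whole hind limb muscles of unexercised male mice aged 3 months on a C57BL/6 background, with 1 library per mouse and 3 mice per genotype. The controls, labelled wild type, carried the floxed *Baf155* alleles without Cre according to the methods and are called Baf155 WT, or WT, here. The mutants, labelled Baf155 -/-, carried the same alleles with a Cre transgene under the muscle creatine kinase promoter (*MCK*-Cre) and are called Baf155 ΔMF, or ΔMF, here. This promoter is active in differentiated muscle, including the heart, and not in satellite cells, blood vessels or immune cells, so those cells in the samples were not targeted. The question addressed by the comparison is how gene expression differs when the SWI/SNF core subunit Baf155 is lost from muscle fibers.

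As background, *Myod1*, *Myf5*, *Myog* and *Myf6* encode the myogenic regulatory factors (MRFs), basic helix-loop-helix proteins that pair with E proteins and bind E-boxes. The MEF2 proteins are MADS-box factors that act with the MRFs on muscle promoters and that class IIa histone deacetylases hold in check. SIX-family proteins are homeodomain factors that act with EYA coactivators and take part in the fast fiber program. *Pax7* marks satellite cells, the stem cells that lie beside the fibers. SWI/SNF subunits such as Baf60c and Baf47 are known to work with MyoD during differentiation.

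The libraries held between 8426022 and 12469335 counts. *Smarcc1*, which encodes Baf155, had 23.4, 19.5 and 16.9 TMM-normalized CPM (counts-per-million after scaling of the libraries) in the WT mice MS13-3, MS15-2 and MS15-3. It had 7.04, 6.54 and 7.71 CPM in the ΔMF mice MS13-1, MS13-2 and MS14-2, so every library matched its label (log2 fold change -1.49, standard error 0.15, adjusted p = 0.00907 from edgeR). The mice are named by their sample titles, and the labels do not say what the prefixes MS13, MS14 and MS15 stand for. On the first principal component of log2 CPM, with 43.3% of the variance, mice MS15-2 and MS15-3 stood apart at 24.98 and 22.5. Mouse MS13-3, also WT, scored -13.4, among the ΔMF mice (-17.1 to -1.56). Values are therefore given mouse by mouse, and also without the WT mouse MS13-3 and within the prefix MS13. The mouse MS13-3 was singled out from these same values. Leaving it out favors a separation of the genotypes, so p-values without it are a description and not an independent test.

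Adult muscle in both genotypes held the MRFs at very unequal levels, with *Myf6* far above the others. CPM values were divided by the length of all annotated exons in kilobases, so that genes of different length can be set beside each other. *Myf6*, known as the MRF that persists in mature fibers, had 90.0 ± 4.79 CPM per kb (SD, n = 3) in WT and 83.4 ± 4.34 CPM per kb in ΔMF muscle. It made up between 79.9% and 88.1% of the summed MRF level per kb in the 6 mice. *Myod1* made up between 7.93% and 15.2%, *Myog* between 2.07% and 4.26% and *Myf5* between 0.688% and 1.07%.

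Among the MEF2 genes, *Mef2c* was the most abundant per kb, with 55.8% to 62.0% of the summed level of the 3 genes, followed by *Mef2d* (23.6% to 29.9%) and *Mef2a* (13.4% to 15.3%). In WT muscle the order of levels per kb was *Myf6*, *Mef2c* (40.8 ± 4.04), *Mef2d* (18.5 ± 4.99), *Myod1* (13.6 ± 4.47), *Mef2a* (10.1 ± 1.25), *Six4* (5.41 ± 0.612), *Myog* (3.70 ± 0.939), *Myf5* (0.885 ± 0.10) and *Pax7* (0.384 ± 0.119). WT mice overlapped between the neighbors *Mef2d* and *Myod1* and between *Myod1* and *Mef2a*, and not between any other neighbors in this order. The order of the upper genes rests on the length used. With the longest annotated transcript as the length, *Mef2c* (102.1 ± 10.1 CPM per kb) lay above *Myf6* (90.0 ± 4.79), and *Mef2a* (26.9 ± 3.32) lay above *Mef2d* (20.5 ± 5.53) and *Myod1* (13.6 ± 4.47).

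**Figure D1:**
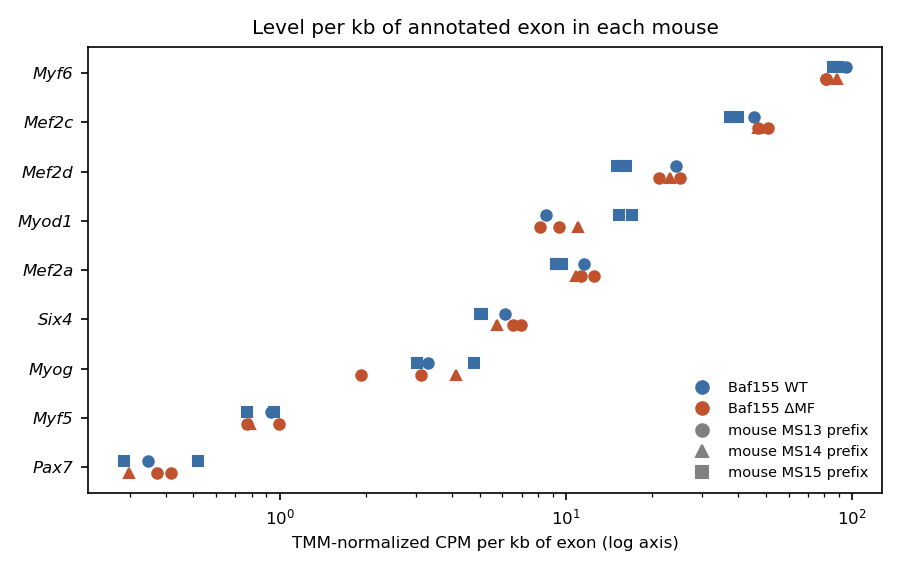
Level of each gene in each mouse as TMM-normalized CPM per kb of annotated exon on a log axis. Blue points are WT mice, orange points are ΔMF mice, and shapes give the title prefix. Levels run from 0.287 for *Pax7* to 95.1 for *Myf6*, and in *Mef2d* and *Myod1* the MS13 WT mouse lies among the ΔMF mice.

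The genes lie on 7 chromosomes of the mouse build GRCm38 in the GENCODE M21 annotation. *Myod1* is on chromosome 7 from 46376474 to 46379099 and *Myog* on chromosome 1 from 134289989 to 134292548. *Myf5* (chromosome 10 from 107482908 to 107486134) and *Myf6* (chromosome 10 from 107492853 to 107494737) lie 6718 bases apart on the same strand. *Mef2a* is on chromosome 7 from 67231163 to 67372858, *Mef2c* on chromosome 13 from 83504034 to 83667080 and *Mef2d* on chromosome 3 from 88142372 to 88172086. *Six4* is on chromosome 12 from 73099609 to 73113456 and *Pax7* on chromosome 4 from 139737062 to 139833528. *Mef2a* overlaps *Lysmd4* on the opposite strand and 2 unclassified transcripts on its own strand, and *Mef2d* overlaps an antisense transcript. Reads of these overlapping genes may not be told apart, because the strand setting of the counting is not given in the sources used here.

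Promoter sequences were available for 7 of the 9 genes, as 10 RefSeq windows on GRCm38.p6, of which the 250 bases upstream of the annotated start were searched on both strands. The patterns were the E-box CANNTG (bound by MRFs with E proteins), the MEF3 core TCAGGTT (bound by SIX-family proteins) and a MEF2 core of TA, any 4 A or T bases and TA. A TATA box can meet the last pattern. Of all 32851 RefSeq windows, 66.2% held an E-box, 3.49% a MEF3 core and 8.56% a MEF2 core, and 0.225% held all 3 patterns. Of the windows of the 9 genes, 3 held an E-box, 3 a MEF3 core and 2 a MEF2 core. The only member windows with all 3 patterns were that of *Myog* (chr1:134289754-134290003, plus strand) and the first of 3 windows of *Mef2c* (chr13:83503784-83504033, plus strand). Both are shown 5′ to 3′ because each holds the binding patterns of all 3 factor families described here, with the matches in capitals.
Myog: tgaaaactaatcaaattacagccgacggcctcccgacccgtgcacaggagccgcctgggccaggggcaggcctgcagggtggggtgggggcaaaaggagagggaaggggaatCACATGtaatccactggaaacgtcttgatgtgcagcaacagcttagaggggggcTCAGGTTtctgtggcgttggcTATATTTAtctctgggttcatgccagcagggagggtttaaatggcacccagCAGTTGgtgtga
Mef2c: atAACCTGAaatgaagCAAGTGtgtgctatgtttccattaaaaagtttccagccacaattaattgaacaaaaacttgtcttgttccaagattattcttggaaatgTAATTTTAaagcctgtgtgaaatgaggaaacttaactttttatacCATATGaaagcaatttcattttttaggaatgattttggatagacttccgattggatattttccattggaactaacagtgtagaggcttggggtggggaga

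In *Myog* the E-boxes lie 138 to 133 and 12 to 7 bases upstream of the RefSeq start, the MEF3 core 84 to 78 and the MEF2 core 63 to 56 bases upstream. In *Mef2c* the MEF3 core lies 248 to 242 bases upstream on the minus strand, the MEF2 core 145 to 138 bases and the E-boxes 234 to 229 and 100 to 95 bases upstream. A match of letters is a description and not a bound site, and binding was not measured in these samples.

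None of the 9 genes passed an adjusted p of 0.05 in the comparison of 3 ΔMF with 3 WT mice, and 3 of all 12116 genes did (0.0248%). At an unadjusted p of 0.05, 3 of the 9 genes differed (*Myod1* lower, *Mef2c* and *Six4* higher in ΔMF), where 7.95% of all genes tested did. The values of the genotypes did not overlap in 1 of the 9 genes, *Mef2c*, where 10.8% of all genes did not overlap. The median log2 fold change of the 9 genes was -0.06, and that of all genes tested was near 0 (-0.00095). With 3 mice against 3, the two-sided exact permutation test, run on each of the 9 genes, has 0.10 as its smallest possible p. It gave 0.10 for *Mef2c* and 0.20 to 0.90 for the other 8 genes.

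**Figure D2:**
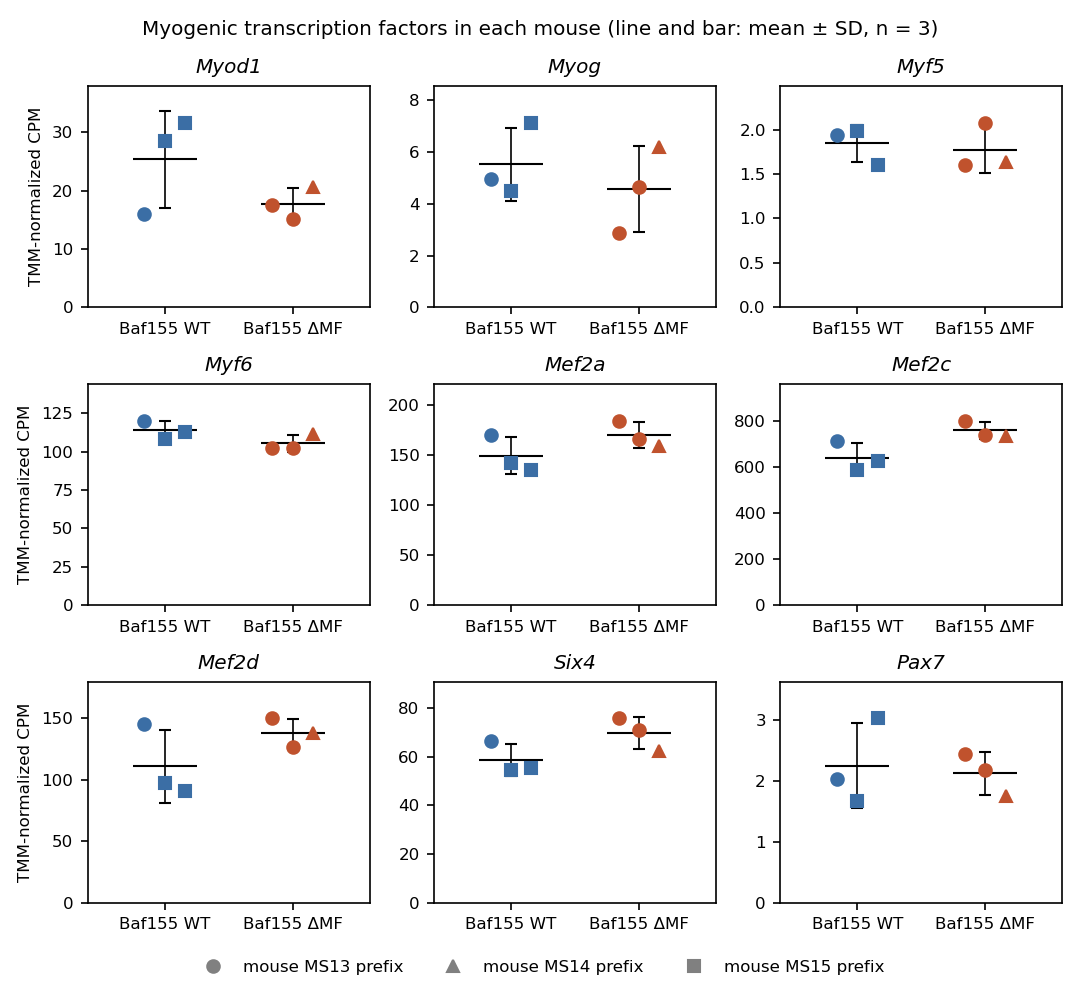
TMM-normalized CPM of each of the 9 genes in each mouse on axes that start at 0, with the mean and SD of 3 mice per genotype as lines and bars. Circles, triangles and squares are mice with the title prefix MS13, MS14 and MS15. In *Myod1* the MS15 WT mice (28.5 and 31.6) lie above the other 4 mice (15.1 to 20.6), and in *Mef2d* they lie below them (90.6 and 97.0 against 126.6 to 149.8).

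*Myod1*, which commits cells to the muscle lineage and in adult muscle is more abundant in fast than in slow fibers, had 15.9, 28.5 and 31.6 CPM in the WT mice MS13-3, MS15-2 and MS15-3. It had 17.6, 15.1 and 20.6 CPM in the ΔMF mice MS13-1, MS13-2 and MS14-2. The MS15 WT mice were above all others, and the MS13 WT mouse lay within the range of the ΔMF mice, so the genotypes overlapped. These levels rest on 164, 373 and 355 counts and on 165, 146 and 176 counts. The exact Poisson 95% interval of the MS13 WT mouse (13.6 to 18.6 CPM) did not meet those of the MS15 mice (25.7 to 31.5 and 28.4 to 35.1 CPM). These intervals cover counting error only, which separate mice usually exceed.

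The log2 fold change of *Myod1* was -0.52 (standard error 0.22, 95% interval -1.004 to -0.04), with an adjusted p of 0.611 from edgeR. Without the WT mouse MS13-3 it was -0.76 (95% interval -1.04 to -0.48, adjusted p = 0.00303). Between the MS13 mice alone it was 0.04. No ΔMF mouse carried the prefix MS15, so prefix and genotype cannot be told apart in the MS15 mice. The mouse MS13-3 was the only WT mouse with another prefix.

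*Myog*, the MRF of terminal differentiation, which is low in innervated adult fibers, had 4.95, 4.51 and 7.13 CPM in WT and 2.88, 4.67 and 6.19 CPM in ΔMF mice. The genotypes overlapped, and the MS13 ΔMF mouse MS13-1 was the lowest with 27 counts against 45 to 80 counts in the other mice. The log2 fold change was -0.28 (95% interval -0.88 to 0.32, adjusted p = 0.776), which allows anything from a fold of 0.545 to one of 1.25. The ratio of *Myod1* to *Myog* counts within a mouse was 3.22, 6.32 and 4.44 in WT and 6.11, 3.24 and 3.32 in ΔMF mice, without separation.

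*Myf6* had 120.1, 108.1 and 112.9 CPM in WT and 102.4, 102.0 and 111.7 CPM in ΔMF mice. The highest ΔMF mouse lay above the lowest WT mouse. The log2 fold change was -0.11 (standard error 0.09, 95% interval -0.30 to 0.08, adjusted p = 0.717), and the interval as a fold ran from 0.81 to 1.06. Of the 9 genes, *Myf6* had the narrowest interval. Within the prefix MS13 the value was -0.23, and without the mouse MS13-3 it was -0.07.

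*Mef2c*, which encodes the MEF2 protein needed for sarcomere integrity, was the only one of the 9 genes without overlap. It had 710.9, 587.0 and 624.9 CPM in the WT mice and 800.9, 739.3 and 734.7 CPM in the ΔMF mice. All 3 ΔMF mice lay above all 3 WT mice, and the MS13 WT mouse was the nearest to them. On the log2 scale the fold change was 0.24 (standard error 0.10, 95% interval 0.01 to 0.47, adjusted p = 0.611), a fold of 1.18. It was 0.32 without the mouse MS13-3 (adjusted p = 0.0492) and 0.12 between the MS13 mice alone.

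*Mef2d*, whose muscle isoform acts in differentiating and mature fibers, had 145.2, 97.0 and 90.6 CPM in WT and 149.8, 126.6 and 138.1 CPM in ΔMF mice. The MS13 WT mouse was higher than 2 of the 3 ΔMF mice, and the MS15 mice were the lowest. Over all 6 mice the log2 fold change was 0.32 (95% interval -0.03 to 0.67, adjusted p = 0.622). Without the mouse MS13-3 it was 0.56 (95% interval 0.35 to 0.76, adjusted p = 0.0032), and between the MS13 mice alone it was -0.07, in the opposite direction. The deposited values are summed over transcripts, so isoforms of the MEF2 genes were not separated.

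*Mef2a* had 169.8, 141.9 and 135.1 CPM in WT and 183.9, 165.6 and 159.0 CPM in ΔMF mice. Again the MS15 mice were the lowest and the MS13 WT mouse lay within the ΔMF range. This gave a log2 fold change of 0.19 (95% interval -0.05 to 0.43, adjusted p = 0.646), 0.29 without the mouse MS13-3 (adjusted p = 0.0717) and 0.04 between the MS13 mice. Summed over *Mef2a*, *Mef2c* and *Mef2d*, the level was 1026 CPM in the MS13 WT mouse, 825.9 and 850.6 CPM in the MS15 WT mice and 1031 to 1135 CPM in the ΔMF mice.

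*Six4*, a SIX-family factor of the myogenic and fast fiber programs, had 66.4, 54.5 and 55.4 CPM in WT and 75.7, 71.0 and 62.5 CPM in ΔMF mice. The MS13 WT mouse lay above the ΔMF mouse MS14-2, so the genotypes overlapped. As a log2 fold change the difference was 0.25 (standard error 0.11, 95% interval 0.01 to 0.49, adjusted p = 0.613), 0.35 without the mouse MS13-3 (adjusted p = 0.0464) and 0.14 between the MS13 mice alone.

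Without the WT mouse MS13-3, 4 of the 9 genes passed an adjusted p of 0.05, with *Myod1* lower and *Mef2c*, *Mef2d* and *Six4* higher in ΔMF muscle. In the same fit 7.77% of all genes passed, or 955 of 12288. That fit compares MS15 WT mice with MS13 and MS14 ΔMF mice, so prefix and genotype cannot be told apart in it. The omitted mouse was picked because it lay among the ΔMF mice, so the fit is not an independent test. Omitting any other single mouse left none of the 9 genes with an adjusted p under 0.05. With the prefix as a covariate, the contrast rests on the MS13 mice, and none of the 9 genes passed (lowest adjusted p = 0.92, for *Myf6*).

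**Figure D3:**
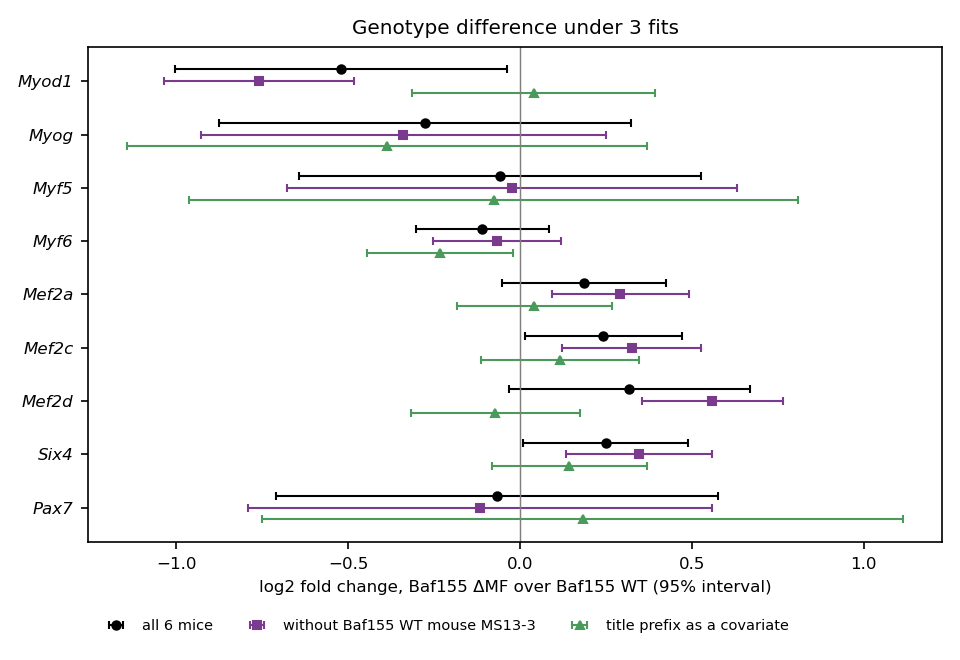
Log2 fold change of each gene (ΔMF over WT) with its 95% interval from edgeR under 3 fits. Black circles use all 6 mice, purple squares leave out the WT mouse MS13-3, and green triangles have the title prefix as a covariate. For *Myod1* the estimate runs from -0.76 to 0.04 and for *Mef2d* from 0.56 to -0.07, while for *Myf6* it stays between -0.23 and -0.07.

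*Pax7* and *Myf5*, which mark satellite cells, were near the lower end of what these libraries show. *Pax7* had 21, 22 and 34 counts in WT and 23, 21 and 15 counts in ΔMF mice, or 2.04, 1.68 and 3.03 against 2.45, 2.18 and 1.75 CPM. *Myf5* had 20, 26 and 18 counts in WT and 15, 20 and 14 counts in ΔMF mice, or 1.94, 1.99 and 1.604 against 1.6002, 2.07 and 1.64 CPM. The smallest level the libraries can show, taken as 3 counts, was 0.229 to 0.35 CPM, so both genes were detected in every mouse.

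The genotypes overlapped in both genes. The log2 fold change of *Pax7* was -0.07 (95% interval -0.71 to 0.58, adjusted p = 0.954) and that of *Myf5* was -0.06 (95% interval -0.64 to 0.53, adjusted p = 0.957). As folds these intervals run from 0.612 to 1.49 and from 0.64 to 1.44. Differences within these bounds were thus not excluded with 3 mice per genotype at this depth. In bulk muscle, fewer satellite cells and less RNA per satellite cell cannot be told apart. The paper counted Pax7-positive cells in sections of the tibialis anterior muscle and reported similar numbers in both genotypes. Of 18 satellite cell genes, these 2 included, 15 could be tested and none passed an adjusted p of 0.05. *Hes1* and *Heyl*, targets of the Notch signal that keeps satellite cells quiescent, and *Sdc4*, a syndecan at their surface, did not overlap between genotypes and had an unadjusted p under 0.05. They were 3 of the 15 tested, where 10.8% of all genes did not overlap and 7.95% had such a p. *Heyl* had 7.18, 7.11 and 5.26 CPM in WT and 11.3, 9.34 and 7.71 CPM in ΔMF mice (log2 fold change 0.54, adjusted p = 0.601). *Sdc4* had 53.3, 62.3 and 70.8 CPM in WT and 48.0, 42.4 and 50.7 CPM in ΔMF mice (log2 fold change -0.40, adjusted p = 0.601). These 3 genes are also expressed outside satellite cells.

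The partners and inhibitors of the MRFs were compared next. Of 20 genes for E proteins, Id proteins, Twist factors and other repressors, 17 could be tested and none passed an adjusted p of 0.05. At an unadjusted p of 0.05, 4 of the 17 were higher and 0 were lower in ΔMF muscle, where 7.95% of all genes tested differed in either direction (406 higher, 557 lower). The median log2 fold change was 0.13. The lowest p was that of *Bhlhe41*, a circadian repressor that binds E-boxes and can oppose MyoD. It had 54.2, 53.6 and 51.3 CPM in WT and 72.0, 64.8 and 83.3 CPM in ΔMF mice, without overlap. It differed by 0.47 on the log2 scale (standard error 0.10, edgeR adjusted p = 0.404), and by 0.34 between the MS13 mice alone. *Hes1* had 10.5, 11.4 and 10.8 CPM in WT and 11.9, 15.5 and 13.4 CPM in ΔMF mice (log2 fold change 0.32, adjusted p = 0.601). *Hes1* and *Heyl*, which were also counted with the satellite cell genes, are among the 4 higher genes.

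Among 26 genes that regulate or assist MEF2 (class IIa histone deacetylases, calcium-dependent kinases, calcineurin, SRF and TEAD cofactors), 24 could be tested and none passed an adjusted p of 0.05. The median log2 fold change was 0.04. The lowest p was that of *Rcan1*, a calcineurin inhibitor whose transcription calcineurin itself drives. It had 135.4, 150.2 and 137.8 CPM in WT and 68.9, 98.7 and 89.8 CPM in ΔMF mice, and the groups were well apart. On the log2 scale the fold change was -0.72 (standard error 0.12, adjusted p = 0.173), against -0.69 for the MS13 mice alone. The value of *Rcan1* within the prefix MS13 was thus near that over all mice, while those of *Myod1* and *Mef2d* were near 0. *Sik1*, a kinase that acts on class IIa histone deacetylases, had 13.4, 19.9 and 18.9 CPM in WT and 10.7, 14.8 and 12.3 CPM in ΔMF mice and overlapped (log2 fold change -0.47, adjusted p = 0.601).

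Of 11 other SIX-family, EYA and DACH genes, *Six3* and *Six6* had no counts in any mouse and 9 were tested, none with an adjusted p under 0.05. *Six2* was low, with 2.04, 2.37 and 1.16 CPM in WT and 2.99, 3.22 and 3.27 CPM in ΔMF mice, without overlap (log2 fold change 0.75, standard error 0.28, adjusted p = 0.601). Its levels rest on 13 to 31 counts per mouse, and its deposited estimates were not whole numbers in any of the 6 mice. *Dach1*, a corepressor that works with SIX-family factors, did not overlap either, with 2.52 to 3.59 CPM in WT and 3.63 to 4.05 CPM in ΔMF mice (log2 fold change 0.40, adjusted p = 0.633).

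Among 8 SWI/SNF subunits tied to these factors, *Smarcc1* passed an adjusted p of 0.05 and the other 7 did not. *Smarca2*, the Brm ATPase, had 55.1, 55.3 and 56.2 CPM in WT and 71.0, 64.5 and 59.7 CPM in ΔMF mice (log2 fold change 0.23, adjusted p = 0.601). *Smarcd3*, which encodes Baf60c, had 143.9 ± 21.1 and 142.2 ± 7.89 CPM (log2 fold change -0.02, adjusted p = 0.969).

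Genes known as MRF or MEF2 targets in muscle were examined as a list of 31 symbols, of which 29 were in the table and 28 could be tested. None passed an adjusted p of 0.05. At an unadjusted p of 0.05, 1 was higher and 2 were lower of the 28, near the 7.95% of all genes tested. The median log2 fold change was -0.07. Of 12 fast fiber genes and 10 slow fiber genes, none passed an adjusted p of 0.05, with median log2 fold changes of -0.10 and near 0 (-0.004). *Myh1*, the type 2X myosin heavy chain, did not overlap, with 5726, 4029 and 4805 CPM in WT and 7676, 6335 and 6460 CPM in ΔMF mice (log2 fold change 0.49, standard error 0.15, adjusted p = 0.601). Its deposited estimates were not whole numbers in any of the 6 mice.

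*Myog* and embryonic or perinatal muscle genes are known to be induced when fibers lose their nerve or regenerate, so a list of 14 such symbols was also counted. 12 were in the table, 9 could be tested and none passed an adjusted p of 0.05. *Chrng*, the fetal acetylcholine receptor subunit, had at most 1 count in any mouse. *Myh8*, the perinatal myosin heavy chain, had 1.65, 1.68 and 2.23 CPM in WT and 2.45, 2.80 and 2.92 CPM in ΔMF mice (log2 fold change 0.55, adjusted p = 0.621). These levels rest on 17 to 27 counts per mouse, and the deposited estimates were not whole numbers in any of the 6 mice. Whether reads shared with other myosin genes enter them was not tested. *Runx1*, a factor induced by denervation, had 6.89, 7.26 and 6.33 CPM in WT against 4.80, 4.88 and 5.72 CPM in ΔMF mice (log2 fold change -0.42, adjusted p = 0.601).

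Markers of some other cell types varied between the mice as several of the 9 genes did. So did the fiber genes *Ttn*, *Neb*, *Ckm* and *Acta1*, in opposite directions. The summed level of 7 macrophage and leukocyte markers, all detected, was 75.9 CPM in the MS13 WT mouse, 235.3 and 192.1 CPM in the MS15 WT mice and 70.6 to 118.1 CPM in the ΔMF mice, the order of groups seen for *Myod1*. The summed level of 6 endothelial markers was 297.4 CPM in the MS13 WT mouse, 225.8 and 236.7 CPM in the MS15 mice and 295.7 to 320.0 CPM in the ΔMF mice, as for the MEF2 genes and *Six4*. Of the 6, *Tek* and *Emcn* did not follow this pattern, with log2 fold changes of 0.04 and 0.01. None of these 13 markers passed an adjusted p of 0.05. At an unadjusted p of 0.05, all 7 macrophage markers were lower in ΔMF muscle (median log2 fold change -0.93) and 2 of 6 endothelial markers were higher (median 0.29), where 7.95% of all genes tested differed. Each of the 7 macrophage markers overlapped between genotypes. *Pecam1* and *Kdr*, an adhesion molecule and a VEGF receptor of endothelial cells, were the only 2 of the 6 endothelial markers without overlap between genotypes. Their log2 fold changes were 0.32 and 0.41 (adjusted p = 0.601 for both). *Mef2c* is also expressed in endothelial and other cells. Without the mouse MS13-3, all 7 macrophage markers were lower and 4 of 6 endothelial markers were higher in ΔMF muscle at an adjusted p under 0.05, where 7.77% of all genes passed. In the same fit 4 of 6 fibro-adipogenic, 2 of 5 adipocyte and 2 of 5 erythroid markers were lower, and 1 of 5 smooth muscle and pericyte markers and 2 of 7 muscle fiber markers were higher. None of the 6 Schwann cell markers passed.

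The sums of 6 fibro-adipogenic markers were 1615 to 2025 CPM in WT and 1447 to 2196 CPM in ΔMF mice, and those of 6 Schwann cell markers 29.3 to 42.2 and 30.02 to 44.5 CPM. The fibro-adipogenic sum joins markers of opposite sign. *Dcn*, *Lum* and *Ly6a* had log2 fold changes of -0.43, -0.41 and -0.46, with an unadjusted p under 0.05, and the MS15 WT mice were the highest in all 3 genes. The collagen genes *Col1a1* and *Col3a1* had 0.36 and 0.31. None of the 6 passed an adjusted p of 0.05. The sums of 5 smooth muscle and pericyte markers were 606.4 to 778.3 and 743.5 to 876.6 CPM, those of 5 adipocyte markers 37.8 to 75.8 and 32.5 to 48.2 CPM and those of 5 erythroid markers 621.2 to 1226 and 370.2 to 804.2 CPM. The smooth muscle and pericyte sum was mostly *Rgs5*, with 459.0 to 740.5 CPM over the mice (log2 fold change 0.32). *Acta2* went the other way (-0.15), as the only 1 of these 5 markers. The part of all these cell types in the values of *Myod1*, the MEF2 genes and *Six4* was not tested. The 7 muscle fiber markers summed to 151117 to 202139 CPM in WT and 173787 to 203995 CPM in ΔMF mice, so the samples were muscle in all mice. Of these 7, 4 had higher and 3 had lower estimates in ΔMF muscle, with a median log2 fold change of 0.009. *Ttn* and *Neb* were lowest in the MS15 WT mice (log2 fold changes 0.43 and 0.35). *Ckm* and *Acta1* were highest in the MS15 WT mice (-0.20 and -0.17). None of the 7 passed an adjusted p of 0.05 from edgeR.

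**Figure D4:**
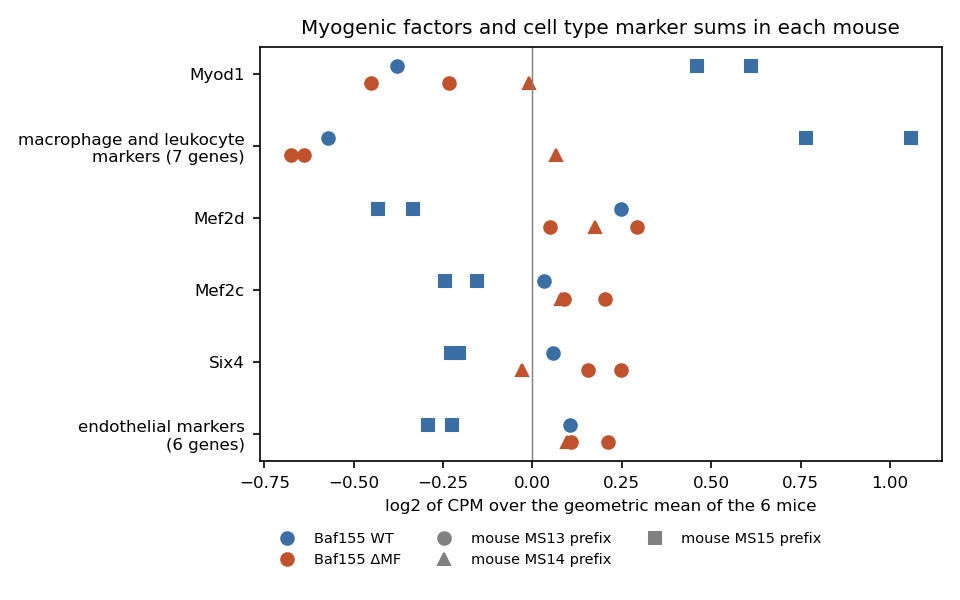
Level of *Myod1*, *Mef2d*, *Mef2c*, *Six4* and of summed macrophage and endothelial markers in each mouse, as the log2 of CPM over the geometric mean of the 6 mice. The MS15 WT mice (squares) lie at one end in every row, and the MS13 WT mouse (blue circle) lies near the ΔMF mice.

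The genes with the most similar pattern to each of the 9 genes were sought by Pearson's r of log2 CPM over the 6 mice among all genes tested. For *Myod1* this was *Sqle*, an enzyme of sterol synthesis (r = 0.997), for *Mef2c* it was *Foxo1* (r = 0.997), a transcription factor of fasting and atrophy, and for *Mef2d* it was *Hk2* (r = 0.999), a hexokinase of muscle. For the other genes they were *Otud7b* (*Mef2a*, 0.997), *Kidins220* (*Six4*, 0.996), *Fut11* (*Myf5*, 0.997), *Mesdc1* (*Myog*, 0.989), *Cdr2* (*Myf6*, 0.985) and *Zfpm2* (*Pax7*, 0.981). With 6 mice, of which the MS15 mice stood apart, and 12116 genes searched, values of this size are a description of these mice only.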

How the data were processed

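The authors deposited 1 table of expected counts (estimated read numbers per gene symbol, not normalized) from TruSeq Stranded Total RNA libraries. The submitters' processing notes name CASAVA 1.8.2, cutadapt 1.10, Bowtie2 2.2.7, TopHat2 2.1.1, RSEM 1.2.30 and limma, and the builds mm10 and GRCm38, without giving their roles. The estimates were rounded to whole counts, since 2919 of 20632 genes differed from a whole number by over 1e-06 in at least 1 mouse.

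Genes were kept by filterByExpr (minimum count 10, minimum total 15), scaled by TMM (factors 0.958 to 1.05) and compared between genotypes with the quasi-likelihood F test of edgeR 4.0.16 in R 4.3.3, without covariates. Adjustment was by Benjamini and Hochberg across the 12116 genes that passed the filter. Standard errors are the log2 fold change divided by the root of F, and intervals are 95%. Log2 CPM for the principal components and the pattern search used a prior count of 2. CPM per kb used the summed length of all GENCODE M21 exons of a gene. Values between the MS13 mice alone are the log2 ratio of the mean CPM of the 2 Baf155 ΔMF mice to the CPM of the 1 Baf155 WT mouse, without a test. Poisson intervals and the floor of 3 counts cover counting error only. The script was tested on simulated data.

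The 9 genes and the lists were chosen with earlier results of these data known. Genes were named if they belonged to the 9, had an adjusted p under 0.05, or had an unadjusted p under 0.05 without overlap between genotypes, or had 1 of the 2 lowest p-values in a list of regulators. *Smarcc1* was named as the targeted gene. *Smarcd3*, *Chrng* and the fibro-adipogenic markers were named for their roles after their values were seen. *Tek*, *Emcn*, *Rgs5*, *Acta2*, *Ttn*, *Neb*, *Ckm* and *Acta1* were also named after their values were seen. The counts of genes passing and the log2 fold changes of the 9 genes, *Smarcc1* and the other genes named by the rule were also computed with limma-voom (limma 3.58.1), with DESeq2 1.42.0, under other filters and scalings, with a term for the title prefix, and with 1 mouse omitted at a time. The lists were recounted without MS13-3 alone. The longest transcript as a length was added after seeing the data.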

Additional observations from a re-analysis of the deposited data

How the results depend on the processing

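No paired analysis was possible because the genotypes share only 1 title prefix, MS13, and the titles tie no single WT mouse to a single ΔMF mouse. The fit with a term for the title prefix is given in its place. None of the 9 genes had an adjusted p under 0.05 with edgeR on all mice (3 at an unadjusted p under 0.05), DESeq2 (3), limma-voom (2), RLE scaling (3), library size only (1), no low-count filter (4), at least 10 counts in every library (3) or a term for the title prefix (1). Omitting 1 mouse at a time gave between 0 and 4 genes, and 4 were found without the WT mouse MS13-3.

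Over all genes, 3 passed with edgeR on all mice. DESeq2 gave 23, limma-voom 5, no low-count filter 17 and a term for the title prefix 16. Omitting 1 mouse gave from 0 genes (without WT MS15-2 or ΔMF MS13-2, with 451 and 568 genes at an unadjusted p under 0.05) to 955 (without WT MS13-3). It also gave 7 without WT MS15-3 and 1 without ΔMF MS13-1. The adjusted p of *Smarcc1* was 0.0616 without WT MS15-2, 0.0533 without ΔMF MS13-1 and 0.0678 without ΔMF MS13-2, with log2 fold changes of -1.50, -1.48 and -1.43 against -1.49 with all mice. That of *Rcan1* fell below 0.05 in 3 of 13 alternatives and ranged from 0.000174 to 0.542.

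The directions of *Myog*, *Myf6*, *Mef2a*, *Mef2c* and *Six4* held in all 13 alternatives. A term for the title prefix turned the log2 fold change of *Myod1* to 0.0397, that of *Mef2d* to -0.0721 and that of *Pax7* to 0.182. Omitting 1 mouse moved *Myf5* between -0.19 and 0.013, with 0.0087 without WT MS15-2 and 0.013 without ΔMF MS13-1. It moved *Pax7* between -0.249 and 0.207, with 0.207 without WT MS15-3 and 0.0528 without ΔMF MS14-2. The cause was not tested. Scaling by library size moved the median of all genes by -0.063 (log2). *Pax7* and *Myf5*, with at most 34 counts per mouse, are limited by depth.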
